A study of Danio rerio with 4 samples.

Results

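The solute carriers, the membrane proteins whose gene symbols start with slc followed by a family number, were examined in zebrafish retina. A probe was taken as a member where its printed gene name, or the current symbol of its RefSeq accession, fits that pattern; 1 probe of the bicarbonate transporter family was set aside by the selection rule. This gave 163 probes of 117 genes among 21495 probes and 8752 named genes on the array, and 112 of the 117 genes were bright enough to test, among 7079 genes tested. The printed name alone identified 59 of the 163 probes, and the other 104 were identified through the accession.

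The study compared progenitors that arise from Muller glia in the injured retina with Muller glia of the uninjured retina, and both were collected by fluorescence-activated sorting of GFP-positive cells. Progenitors came from fish of the transgenic line named 1016 tuba1a:gfp, 7 months old for replicate 1 and 8 months for replicate 2, at 4 days after retinas were poked with a 30-gauge needle (n = 2 arrays). Muller glia came from uninjured gfap:gfp fish of 7 months (n = 2 arrays). GFP is driven by the tuba1a promoter in progenitors and by the gfap promoter in Muller glia, so transgenic line and injury change together and cannot be told apart. The labels call the samples duplicates without saying whether they are separate pools of fish, so the p-values cover the spread among these 4 arrays alone, and that spread may be technical.

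Solute carriers move ions, nutrients, metabolites and transmitters across the plasma membrane and the membranes of organelles. Some exchange one solute for another, some let a solute run down its gradient, and many draw on the sodium gradient that the sodium pump maintains. In the retina, Muller glia are known for taking up glutamate that neurons release, for converting it to glutamine, and for exchanging lactate, glucose, amino acids and potassium with neurons and blood. Dividing cells are known to draw on carriers of glucose, amino acids, nucleosides and vitamins.

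Signals are given as log2 of the spot signal minus the array's 75th percentile, so a value of 0 lies at that percentile, and levels of different probes are not compared. Differences are progenitors minus Muller glia on the log2 scale with the standard error from limma, and a gene was called where its limma p, adjusted over all 16596 probes tested, was below 0.05. The 75th percentile of signal was 4816 and 4899 on progenitor arrays and 4289 and 4455 on glia arrays, and 74.7% and 71.7% of spots on progenitor arrays, against 79.1% and 82.0% on glia arrays, were well above background. All 4 arrays were on 1 slide. The median signal of spike-in control spots was 2740 and 2815 on progenitor arrays, against 5161 and 5752 on glia arrays. Scaling on those spots in place of the 75th percentile added 1.12 to the log2 difference of each gene, so each fall smaller than 1.12 given here has the opposite sign under it, and scaling on the array median lowered each difference by 0.22.

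Of 10 Muller glia marker genes tested, 3 rose, 3 fell and 4 were not called, and none was below background on both arrays of a group. Those that rose were vim (vimentin, 0.88), gfap (0.69) and apoeb (0.49), and those that fell were ptgdsb.1 (-1.09), s100b (-1.09) and gja1b (-0.55). Markers of other cell types were also detected and differed in level. Of 11 microglia and leukocyte markers 9 rose and 1 fell, with a median difference of 1.43 and mean log2 signals of 0.11 and 0.07 in progenitors against -1.45 and -1.46 in glia. Surface epithelium markers fell in 10 of 11 cases (median -4.05, mean log2 signals -3.97 and -4.09 in progenitors against -0.50 and -0.50 in glia), while krt8 rose and esrp2 was not well above background in progenitors. Cone markers fell in 14 of 15 cases (median -0.87) and inner neuron markers in 10 of 14 (median -0.42). Vascular markers were mixed, with 5 of 8 higher and 3 lower (median 0.51). Of the 3, flt4 was well above background on only 1 of 2 progenitor arrays. All 8 erythrocyte markers were called lower (median -1.94), though hbba2 was not well above background in progenitors. In sorted cells measured in bulk, fewer cells of a type and less RNA per cell cannot be told apart, and the part of these other cells in the carrier differences below was not tested.

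Of the 112 solute carriers tested, 27 were higher and 49 lower in progenitors and 36 were not called. Among the 49, slc6a5 and slc17a6b were not well above background on either progenitor array. For slc5a2 and slc13a2 only 1 of 2 progenitor arrays was well above background. All of these entered the test through the glia arrays alone, so their calls are not read as support. With only probes well above background on all 4 arrays, 28 of 108 carriers were higher and 45 lower. Under that filter 71.2% of all genes were called. Of the genes called there, 38.4% of carriers and 42.5% of all genes were higher. Over all 112, 105 were higher and 3 lower under spike-in scaling, and 14 were higher and 71 lower under median scaling. The share called in either direction was 67.9% of the carriers, against 67.9% of all 7079 genes tested. Higher calls made up 24.1% of carriers against 27.5% of all genes, and lower calls 43.8% of carriers against 40.4% of all genes, so the carriers were called about as often as other genes. These shares over all genes are the background for each class count below. The median log2 difference was -0.13 over the carriers and -0.11 over all genes. Both progenitor arrays lay above both glia arrays for 34 carriers and below both for 63, while 88% of all genes had groups that did not overlap in one direction or the other. Without progenitor replicate 2, 17 carriers were called higher.

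At least 2-fold differences were less frequent. Genes at least 2-fold higher in progenitors were slc29a2, slc16a9a, slc44a4, slc43a1a, slc7a4 and slc1a3a, 6 of 112 carriers against 7.7% of all genes. Those at least 2-fold lower by the fitted difference were slc20a1a, slc25a24, slc34a2a and slc6a5, 4 of 112 against 3.98% of all genes. Of these, slc6a5 was not well above background in progenitors, and no fold is taken for it. Under spike-in scaling slc20a1a and slc25a24 kept a negative difference, at -0.31 and -0.29, and that of slc34a2a was 0.10. Of the 30 carriers tested on more than 1 probe, 0 had probes with opposite calls.

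**Figure D1:**
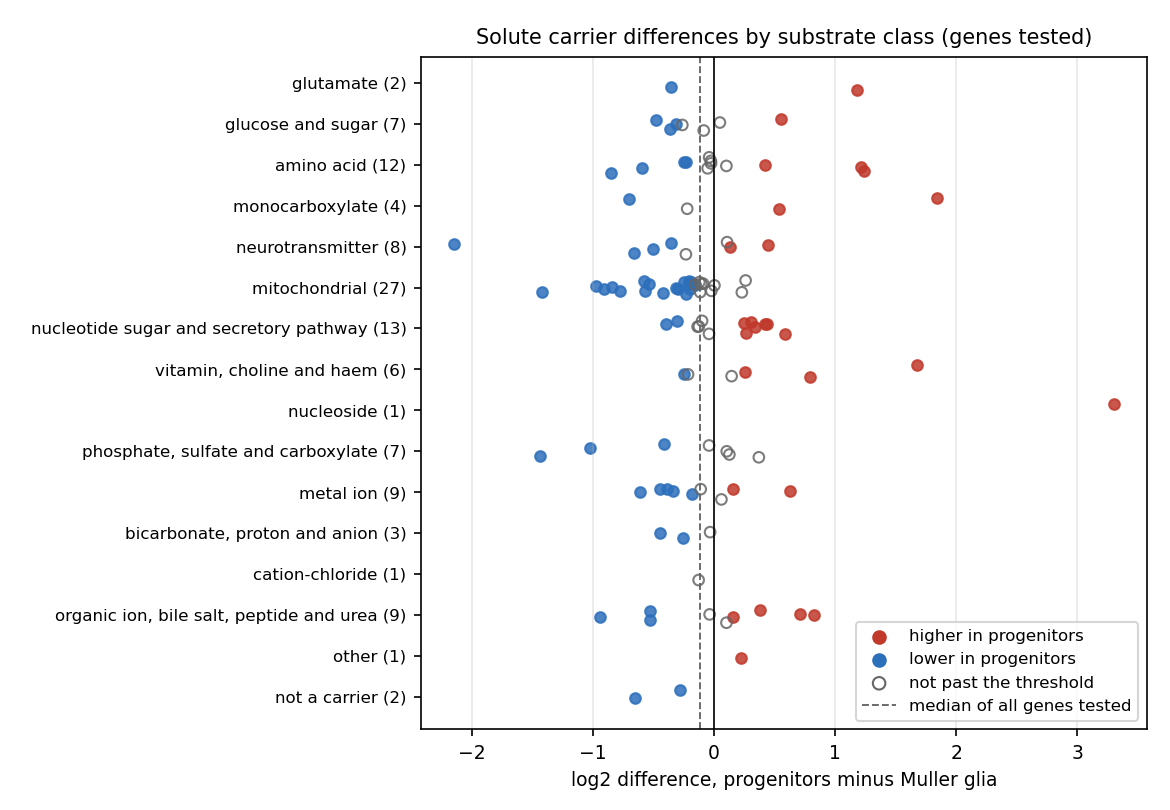
Log2 difference of each tested solute carrier, progenitors minus Muller glia, 1 point per gene with the substrate classes down the page and the number of genes tested in brackets; the dashed line is the median of all genes tested, -0.11. Mitochondrial carriers lie to the left, with 18 lower and 0 higher, and secretory pathway carriers mostly to the right, with 7 higher and 2 lower; spike-in scaling would move every point right by 1.12 and median scaling every point left by 0.22.

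Both glutamate carriers changed, in opposite directions. The gene slc1a3a encodes the glial glutamate and aspartate transporter that clears glutamate from the extracellular space by sodium-coupled uptake. Its log2 signal was 0.12 and 0.11 in progenitors, against -1.129 and -1.003 in Muller glia, so both progenitor arrays lay above both glia arrays. The difference was 1.18 ± 0.06, or 2.26-fold (limma, adjusted p = 0.00058), and it stayed above 0 and called under each alternative processing that was run. The probe lies at chr9:632766-632825 on the minus strand of build danRer2, the build the array design used; no annotation of that build was at hand, so exon and untranslated positions are not given for any probe here.

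The gene slc1a1 encodes a carrier of glutamate, aspartate and cysteine that is known mainly from neurons. It had log2 signals of 0.49 and 0.43 in progenitors and 0.81 and 0.82 in Muller glia, with no overlap. It fell by 0.36 ± 0.05 (limma, adjusted p = 0.00516), a 1.28-fold lower signal, and was 0.77 higher under spike-in scaling. Inner neuron markers moved the same way by a median of -0.42, and their part in this fall was not tested.

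Genes on a list of glutamate and glutamine enzymes split as well. Of 8 tested, 3 rose (37.5%, against 27.5% of all genes), 3 fell (37.5%, against 40.4%) and 2 were not called (median -0.09). The count includes gad1b (-0.38), which also stands among the inner neuron markers, and abat (0.54). Of the glutamine synthetase genes tested, the marker glula had 5.89 and 5.92 in progenitors against 6.01 and 6.05 in glia and was not called (-0.13 ± 0.04, limma adjusted p = 0.0691), whereas glulb rose by 0.54 ± 0.04 (limma, adjusted p = 0.00133). The glutamate dehydrogenase gene glud1a rose by 1.01 ± 0.06, with 1.16 and 1.05 in progenitors against 0.10 and 0.08 in glia (limma, adjusted p = 0.000679). The mitochondrial aspartate aminotransferases got2a and got2b fell, by 0.45 and 0.44, under 75th percentile scaling and were positive under spike-in scaling.

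Of 7 sugar carriers tested, slc2a12 rose, slc2a3a, slc50a1 and slc5a2 fell, and slc5a11, slc2a8 and slc2a5 were not called; all 7 were higher under spike-in scaling. The class median was -0.26. Restricted to probes well above background on all 4 arrays, which leaves out slc5a2, 1 of 6 was higher and 2 were lower, with a median of -0.17. The gene slc2a3a encodes a facilitative glucose transporter of high affinity known from neurons (GLUT3). Its log2 signal was 2.18 and 2.08 in progenitors and 2.60 and 2.62 in glia, a fall of 0.48 ± 0.05 with no overlap (limma, adjusted p = 0.00368; chr19:3980192-3980251, danRer2, minus strand), and 0.65 above glia under spike-in scaling. Cone and inner neuron markers moved the same way, and their part was not tested.

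The facilitative transporter slc2a12 (GLUT12) went the other way, at -3.41 and -3.37 in progenitors against -4.01 and -3.88 in glia. That was a rise of 0.55 ± 0.06 with no overlap (limma, adjusted p = 0.00341), which normexp background correction reduced to 0.20 and no call. The SWEET family sugar carrier slc50a1 had -4.94 and -4.93 in progenitors and -4.64 and -4.59 in glia, a fall of 0.32 ± 0.04 (limma, adjusted p = 0.00613) that was -0.62 and not called after normexp. The sodium-glucose carrier slc5a2, known from kidney, was dim: only 1 of 2 progenitor arrays was well above background, at -7.21 and -7.17 in progenitors against -6.95 and -6.71 in glia. Its fall of 0.36 ± 0.10 (limma, adjusted p = 0.0353) was no longer called without glia replicate 2 (-0.24), progenitor replicate 1 (-0.34) or progenitor replicate 2 (-0.38), under quantile normalization (-0.27) or after normexp (-0.84).

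Among the sugar carriers without a call, the inositol carrier slc5a11 differed by 0.05 ± 0.05, the intracellular transporter slc2a8 by -0.09 ± 0.09 and the fructose transporter slc2a5 by -0.26 ± 0.10, with limma adjusted p-values of 0.432, 0.422 and 0.0929. Arrays of the groups overlapped for slc5a11 and slc2a8 but not for slc2a5, which was called lower without progenitor replicate 2 (-0.39), under median scaling (-0.48) and under quantile normalization (-0.37). Under median scaling slc2a8 was also called lower (-0.31). The intestinal sodium-glucose carrier slc5a1 was not tested, since none of its 3 probes was well above background on more than 1 array.

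Amino acid carriers split by gene, with 3 of 12 higher, 4 lower and 5 not called and a median of -0.03. That is 25% higher and 33.3% lower, against 27.5% and 40.4% of all genes tested. Under spike-in scaling all 12 were higher, and under median scaling 3 were higher and 8 lower. The 3 that rose were slc43a1a, slc7a4 and slc3a2a, and the 4 that fell were slc1a4, slc7a3a, slc3a2b and slc38a4. Without glia replicate 1, and likewise without progenitor replicate 2, 2 were lower.

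The gene slc43a1a encodes a facilitative carrier of large neutral amino acids such as leucine (LAT3). It had log2 signals of -3.31 and -3.45 in progenitors against -4.62 and -4.61 in glia. The rise was 1.24 ± 0.06, or 2.36-fold, with no overlap (limma, adjusted p = 0.000559), and was 0.60 and not called after normexp background correction.

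The gene slc7a4 belongs to the family of cationic amino acid transporters, though its own substrate is not established. Its signals were -1.40 and -1.42 in progenitors and -2.62 and -2.63 in glia. That is a rise of 1.21 ± 0.04, or 2.32-fold, with tight replicates (limma, adjusted p = 0.000231), and its other probe gave 0.89.

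CD98, the heavy chain that carries light-chain amino acid exchangers to the cell surface, is encoded by slc3a2a and slc3a2b, and these moved apart. Paralogue a had 2.23 and 2.21 in progenitors against 1.81 and 1.78 in glia and rose by 0.42 ± 0.04 (limma, adjusted p = 0.00267), while its other probe rose by 1.32. Paralogue b had 4.53 and 4.52 in progenitors against 4.80 and 4.74 in glia and fell by 0.25 ± 0.05 (limma, adjusted p = 0.0122), and its 4 probes ran from -0.31 to -0.09. The fall of slc3a2b was not called after normexp (-0.19) or without glia replicate 1 (-0.22), progenitor replicate 1 (-0.25) or progenitor replicate 2 (-0.24), and was 0.88 higher under spike-in scaling.

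The largest fall in this class was that of slc1a4, a sodium-dependent exchanger of small neutral amino acids such as serine and alanine (ASCT1). It had 1.25 and 1.25 in progenitors and 2.091 and 2.098 in glia, a fall of 0.85 ± 0.04 or 1.80-fold (limma, adjusted p = 0.00049). Its 3 probes gave -0.99 to -0.85, and the difference was 0.28 under spike-in scaling.

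The arginine and lysine carrier slc7a3a had 3.95 and 3.98 in progenitors against 4.55 and 4.57 in glia, a fall of 0.59 ± 0.04 (limma, adjusted p = 0.00126). Sodium-coupled neutral amino acid carrier slc38a4 had 3.60 and 3.53 in progenitors against 3.80 and 3.79 in glia and fell by 0.23 ± 0.05 (limma, adjusted p = 0.0176). For these genes too the arrays of the groups did not overlap, and both were higher under spike-in scaling (0.53 and 0.89). The slc38a4 call was lost without glia replicate 1 (-0.22), glia replicate 2 (-0.24) or progenitor replicate 2 (-0.19), under quantile normalization (-0.076) and after normexp (-0.19).

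The 5 amino acid carriers without a call differed by 0.10 or less. They were the cationic carrier slc7a2 (0.10 ± 0.04), the large neutral amino acid carriers slc43a2a (-0.03 ± 0.05), slc43a2b (-0.03 ± 0.08) and slc7a8 (-0.05 ± 0.05), and the glutamine carrier slc38a5b (-0.04 ± 0.04). Arrays of the groups overlapped for slc43a2a, slc43a2b and slc7a8, and did not for slc7a2 and slc38a5b. Under median scaling slc43a2a (-0.25), slc43a2b (-0.25), slc38a5b (-0.26) and slc7a8 (-0.27) were called lower, the last 2 also under quantile normalization (-0.23 and -0.20).

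**Figure D2:**
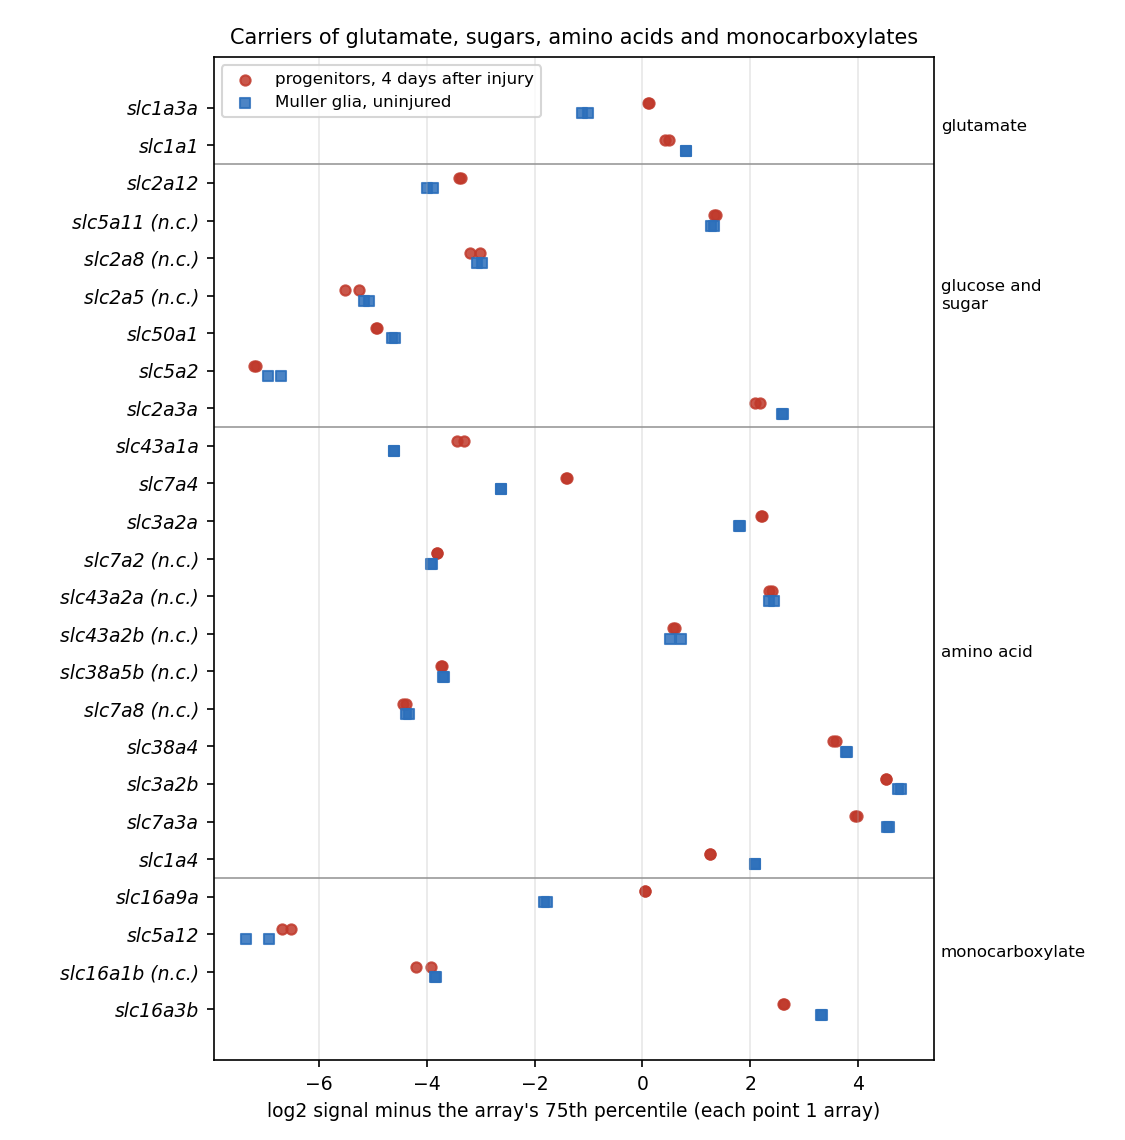
Log2 signal minus the array's 75th percentile (horizontal axis) of every tested carrier of glutamate, sugars, amino acids and monocarboxylates, 1 point per array, with progenitors as red circles and Muller glia as blue squares; n.c. marks genes not called by limma. The pairs lie farthest apart for slc16a9a (difference 1.84) and overlap or nearly touch for the 5 amino acid carriers without a call; levels of different genes are not comparable, and spike-in scaling would move the red points right by 1.12 against the blue.

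Monocarboxylate carriers move lactate, pyruvate and related acids together with protons or sodium. Of 4 tested, slc16a9a and slc5a12 rose, slc16a3b fell and slc16a1b was not called. Under median scaling 1 was higher and 2 lower, and under spike-in scaling 4 were higher. Their glycoprotein partner bsg (basigin), which brings several of them to the membrane, fell by 0.29 ± 0.04 (limma, adjusted p = 0.00685), a change that is positive under spike-in scaling.

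The gene slc16a9a encodes an orthologue of MCT9, which in mammals is linked to carnitine transport. It had log2 signals of 0.04 and 0.05 in progenitors against -1.77 and -1.83 in glia, well apart. The rise of 1.84 ± 0.05, or 3.59-fold (limma, adjusted p = 0.00013; chr17:18890747-18890806, danRer2, minus strand), was 1.74 and still called after normexp background correction.

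MCT4, the lactate exporter typical of glycolytic cells, is encoded by slc16a3b. Its signals were 2.60 and 2.63 in progenitors and 3.32 and 3.33 in glia, a fall of 0.70 ± 0.04 or 1.63-fold with no overlap (limma, adjusted p = 0.000813; chr12:29464097-29464155, danRer2, plus strand). Under spike-in scaling the difference was 0.42. The lactate carrier slc16a1b (MCT1) had -3.92 and -4.21 in progenitors against -3.84 and -3.84 in glia and was not called (-0.22 ± 0.11, limma adjusted p = 0.154), though it was called lower under median scaling (-0.44), under quantile normalization (-0.40) and without progenitor replicate 1 (-0.37).

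The sodium-coupled lactate carrier slc5a12 had low signals, at -6.69 and -6.53 in progenitors and -7.35 and -6.94 in glia. The rise of 0.54 ± 0.16 (limma, adjusted p = 0.0467) was lost without glia replicate 1 (0.33), progenitor replicate 1 (0.61) or progenitor replicate 2 (0.46) and under median scaling (0.31), and turned to -0.54 after normexp background correction.

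The widest difference of any carrier was that of slc29a2, the only equilibrative nucleoside transporter tested, a family that salvages purine and pyrimidine nucleosides (ENT2). It had log2 signals of -2.48 and -2.42 in progenitors against -5.69 and -5.81 in Muller glia, more than 3 log2 units apart. The rise of 3.30 ± 0.06 was 9.84-fold (limma, adjusted p = 7.93e-05), with the probe mapped to chr21:25048407-25049924 of danRer2, minus strand. After normexp background correction it was 1.95 and not called (limma, adjusted p = 0.0724).

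In the class of vitamin, choline and haem carriers 3 of 6 rose, 1 fell and 2 were not called. Under median scaling 2 rose and 2 fell, under spike-in scaling all 6 rose, and after normexp 0 rose and 0 fell. The choline-like transporter slc44a4 had -4.10 and -4.01 in progenitors against -5.71 and -5.75 in glia, a rise of 1.67 ± 0.05 or 3.19-fold (limma, adjusted p = 0.000206) that was 0.56 and not called after normexp. Proton-coupled folate transporter slc46a1 had -3.22 and -3.18 in progenitors against -3.81 and -4.16 in glia and rose by 0.79 ± 0.13 (limma, adjusted p = 0.00927), a call lost after normexp (0.33) and without progenitor replicate 2 (0.77, adjusted p = 0.0518 by limma). The riboflavin carrier slc52a2 was also higher, at 0.26, a call lost after normexp. The haem carriers slc48a1a (0.14) and slc48a1b (-0.21) were not called.

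For slc49a4, the 1 member of that class that fell, signals were -0.06 and 0.07 in progenitors and 0.23 and 0.28 in glia (-0.25 ± 0.07, limma adjusted p = 0.0326). The other probes of this gene gave -0.21 and -0.0076, and it was not called when its probes were averaged (-0.16). It was 0.87 higher under spike-in scaling, and its call was lost without either glia replicate (-0.28 and -0.23) or without progenitor replicate 1 (-0.18), and after normexp (-0.25). Without progenitor replicate 2, 1 member of the class was higher and 2 lower. Microglia and leukocyte markers rose in the same arrays as slc29a2, slc44a4 and the other carriers that rose, by a median of 1.43, and their part was not tested. Vascular markers were higher there in 5 of 8 cases and lower in 3, and their part was not tested either.

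Mitochondrial carriers, the slc25 family, most of which sit in the inner membrane, were the largest class, and 18 of 27 tested fell while 0 rose under 75th percentile scaling; under spike-in scaling 24 were higher and 1 lower. The class median was -0.21 against -0.11 for all genes. Lower calls made up 66.7% of the class against 40.4% of all genes, and higher calls 0% against 27.5%. Falls outnumbered rises under median scaling (25 lower, 0 higher), quantile normalization (16 and 0) and normexp background correction (9 and 0). Falls also outnumbered rises over all called genes there, of which 23.2%, 41.3% and 41.6% were higher. Leaving out glia replicate 1 gave 11 lower. Under 3 alternatives (all arrays well above background, an intensity trend, the replicate number as a block) 1 mitochondrial gene was called higher. One exception to the direction was slc25a55a, picked out after its values were seen: its brightest probe was not called (-0.12), but its other probes gave 0.28 and 0.22 and were called.

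The gene slc25a24 encodes a calcium-regulated exchanger of ATP-magnesium for phosphate. Its log2 signal was 1.85 and 1.87 in progenitors against 3.27 and 3.29 in Muller glia. It fell by 1.42 ± 0.04, 2.67-fold, with no overlap (limma, adjusted p = 0.000181; chr20:42397380-42397439, danRer2, plus strand), and was the mitochondrial gene still lower under spike-in scaling (-0.29).

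The related exchanger slc25a25a had 3.47 and 3.40 in progenitors and 4.40 and 4.42 in glia and fell by 0.97 ± 0.05 (limma, adjusted p = 0.000551). Pyrimidine nucleotide carrier slc25a33 had 3.82 and 3.76 in progenitors against 4.72 and 4.67 in glia and fell by 0.91 ± 0.05 (limma, adjusted p = 0.000651). In both, the replicates of a group lay within 0.1 of each other and the groups almost 1 log2 unit apart, but under spike-in scaling the differences were 0.15 and 0.22.

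The phosphate carrier slc25a3a, which supplies phosphate for ATP synthesis, had 4.66 and 4.56 in progenitors against 5.48 and 5.43 in glia and fell by 0.84 ± 0.06 (limma, adjusted p = 0.00102). Mitoferrin 2, the iron importer encoded by slc25a28, had 0.86 and 0.92 in progenitors and 1.63 and 1.70 in glia and fell by 0.78 ± 0.05 (limma, adjusted p = 0.00103). The signs of slc25a3a and slc25a28 were also opposite under spike-in scaling (0.28 and 0.35).

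The remaining 13 mitochondrial genes called lower had differences from -0.58 to -0.15 on the probe that stood for each gene. Among them were slc25a39, required for glutathione import, the aspartate-glutamate exchanger slc25a12, the outer membrane protein slc25a46, the ADP/ATP exchanger slc25a5 and the other phosphate carrier slc25a3b. Others were slc25a48, slc25a14, slc25a27, slc25a44a, slc25a24l, slc25a43 and slc25a40. For slc25a14 the brightest probe gave -0.25, while its other probe gave -1.12 and was also called. The 9 without a call ranged from -0.16 to 0.26, and slc25a4, an ADP/ATP exchanger, was below background on all arrays. Cone markers, from cells known to be rich in mitochondria, moved the same way (14 of 15 lower, mean log2 signals 4.30 and 4.31 in progenitors against 5.22 and 5.19 in glia), and their part was not tested.

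The class called secretory pathway carriers here was formed by name from the slc35 and slc37 families. Many members of these families bring nucleotide sugars, sulfate donors and sugar phosphates into the Golgi and endoplasmic reticulum. The substrate and location of each gene in the class were not checked. Of 13 tested, 7 rose and 2 fell, with a class median of 0.24; under spike-in scaling all 13 were higher, under median scaling 3 rose and 3 fell, and after normexp background correction 1 rose and 2 fell with a median of -0.10. Without glia replicate 1, 4 rose.

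The glucose-6-phosphate translocase slc37a4a led this class, with -4.19 and -4.28 in progenitors against -4.76 and -4.89 in glia. Its rise of 0.59 ± 0.07 (limma, adjusted p = 0.00405) shrank to 0.01 after normexp background correction. The family member slc35h1, printed on the array as slc35c2, had -2.15 and -2.25 in progenitors against -2.65 and -2.63 in glia and rose by 0.44 ± 0.06 (limma, adjusted p = 0.00474), not called after normexp (0.25). For the other 5 that rose, slc37a2, slc35b4, slc35f6, slc35f2 and slc35a5, differences were 0.24 to 0.42. The 4 without a call were slc35c2, slc35c1, slc35b1 and slc37a1, and slc35d1a was below background.

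The genes that fell were slc35e1, with -1.04 and -1.12 in progenitors and -0.66 and -0.71 in glia (-0.40 ± 0.05, limma adjusted p = 0.00536), and slc35b2, the importer of the sulfate donor PAPS, with -1.11 and -1.14 in progenitors against -0.82 and -0.81 in glia (-0.31 ± 0.04, limma adjusted p = 0.00568). Both had no overlap and opposite signs under spike-in scaling (0.73 and 0.82).

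**Figure D3:**
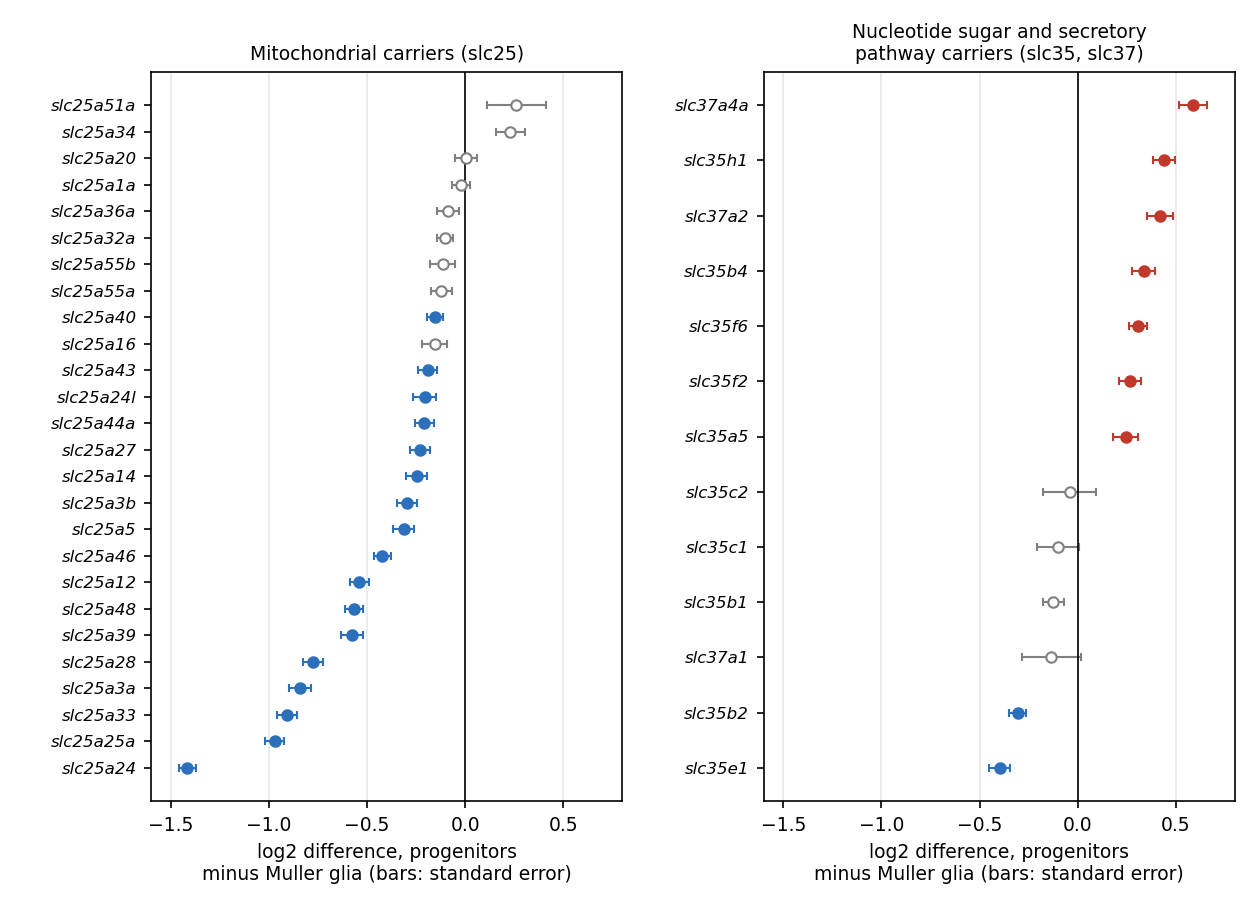
Log2 difference, progenitors minus Muller glia, with the standard error as bars, for the tested mitochondrial carriers but 1 (left) and secretory pathway carriers (right); filled blue points were called lower, filled red points higher and open points not called. Differences of called genes run from -1.42 to -0.15 on the left and from -0.40 to 0.59 on the right; spike-in scaling would move every point right by 1.12 and median scaling every point left by 0.22.

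Phosphate carriers of the plasma membrane included large falls. Of 7 carriers of phosphate, sulfate and carboxylates, 3 fell, 0 rose and 4 were not called, while under spike-in scaling 5 were higher and 1 lower. Restricted to probes well above background on all 4 arrays, which leaves out slc13a2, 0 of 6 were higher and 2 lower. The class median was 0.03 under that filter and -0.04 without it. The sodium-phosphate importer slc20a1a (PiT1) had log2 signals of -1.77 and -1.78 in progenitors against -0.36 and -0.32 in Muller glia. Its fall of 1.44 ± 0.04, 2.71-fold (limma, adjusted p = 0.000182, chr9:21419804-21419864, danRer2), was -0.31 under spike-in scaling. Another probe of the gene gave -1.42. A further probe gave -1.11 but was well above background on only 1 of 2 progenitor arrays. It entered the test through the glia arrays alone and is not read as support.

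The sodium-phosphate importer slc34a2a, known from epithelia, had -2.49 and -2.61 in progenitors against -1.53 and -1.53 in glia, a fall of 1.02 ± 0.06, 2.03-fold (limma, adjusted p = 0.000713), that was 0.10 under spike-in scaling. Paralogues of these genes were not called, with -0.04 for slc20a1b and 0.10 for slc34a2b. Surface epithelium markers moved the same way as slc20a1a and slc34a2a, with 10 of 11 lower and a median of -4.05, and their part was not tested. The other gene called lower, slc13a2, had a difference of -0.42 with 1 of 2 progenitor arrays well above background. Its call is not read as support. The sulfate and carboxylate carriers slc13a1 (0.37) and slc13a3 (0.13) were not called.

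Transmitter carriers were divided, with 2 of 8 higher (25%, against 27.5% of all genes), 4 lower (50%, against 40.4%) and 2 not called. The 4 include slc6a5 and slc17a6b, which entered the test through the glia arrays alone. The 50% is therefore not read as an excess of falls. The filter for signal well above background on all 4 arrays left out both genes. Of the 6 that stayed, 2 rose and 2 fell, and the class median moved from -0.29 to -0.06. Over all 8, 7 were higher under spike-in scaling. Under median scaling 0 were higher and 5 lower, and after normexp 0 and 1. The GABA transporter slc6a1b had 4.67 and 4.62 in progenitors against 5.10 and 5.20 in glia and fell by 0.50 ± 0.06 with no overlap (limma, adjusted p = 0.00329). The vesicular acetylcholine transporter slc18a3b had -6.12 and -5.99 in progenitors against -5.80 and -5.61 in glia and fell by 0.35 ± 0.09 (limma, adjusted p = 0.032), a call lost without glia replicate 2 (-0.26), progenitor replicate 1 (-0.28) or progenitor replicate 2 (-0.42), and after normexp (-0.74). Both signs were opposite under spike-in scaling.

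A pair of neuronal genes was below the background call in progenitors, and both lie outside the rule for named genes and were picked out after their values were seen. The glycine transporter slc6a5 had -9.29 and -9.48 in progenitors, not well above background on either array, against -7.06 and -7.41 in glia. On the progenitor arrays the dimmest probes called well above background lay at -7.77 and -7.27. The glia mean was 1.22-fold above the mean of these floors under 75th percentile scaling. However, glia replicate 2 lay below the floor of progenitor replicate 2, so no fold is taken for slc6a5. The vesicular glutamate transporter slc17a6b had -8.55 and -8.41 in progenitors, not well above background, against -7.75 and -7.89 in glia, and allows no fold. Both entered the test through the glia arrays alone, so their calls are not read as support, and both calls were lost after normexp and in the deposited table.

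Of the transmitter carriers that rose, slc6a22.1, printed as slc6a13, had -0.43 and -0.59 in progenitors against -0.98 and -0.93 in glia (0.44 ± 0.07, limma adjusted p = 0.00897), a call lost under median scaling (0.22) and after normexp (0.39). The vesicular nucleotide carrier slc17a9b differed by 0.13 ± 0.04 (limma, adjusted p = 0.0476), and its call was lost without any one of the 4 arrays (0.13 to 0.14) and its sign was negative under median scaling (-0.087), quantile normalization (-0.013) and normexp (-0.28). Glycine transporter slc6a9 (0.11) and dopamine transporter slc6a3 (-0.23) were not called, and the GABA carrier slc6a11a was below background. Inner neuron markers fell in 10 of 14 cases beside these genes, and their part was not tested.

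Metal carriers had 2 of 9 higher (22.2%, against 27.5% of all genes), 5 lower (55.6%, against 40.4%) and 2 not called. All 9 were higher under spike-in scaling, 1 was higher and 6 lower under median scaling, and 0 and 2 after normexp. The zinc importer slc39a1 had -3.15 and -3.04 in progenitors against -3.67 and -3.77 in glia and rose by 0.63 ± 0.07 (limma, adjusted p = 0.00307), not called after normexp (0.28). Ferroportin, the iron exporter encoded by slc40a1, had 1.25 and 1.26 in progenitors against 1.69 and 1.71 in glia and fell by 0.45 ± 0.04 (limma, adjusted p = 0.00219). The zinc carrier slc39a13 had -2.28 and -2.33 in progenitors against -1.76 and -1.62 in glia and fell by 0.61 ± 0.06 (limma, adjusted p = 0.003).

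A further 3 zinc carriers, slc30a6, slc30a9 and slc39a10, fell by 0.39, 0.34 and 0.18, and none of these calls held after normexp. The iron and manganese carrier slc11a2 (-0.11) and the zinc exporter slc30a1a (0.06) were not called, and slc39a7 was below background. The copper importer slc31a1 was called higher by 0.16 ± 0.04 (limma, adjusted p = 0.0338), but its 4 probes ran from -0.41 to 0.16. That call was lost after normexp (0.19) and without any one of the 4 arrays (0.14 to 0.18), and the sign turned under median scaling (-0.063). It was also lost when the probes were averaged (0.0028), without the filter on dim probes, in the deposited table (0.17) and with the replicate block.

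Of 9 carriers of organic ions, bile salts and peptides 4 rose and 3 fell; 1 rose and 4 fell under median scaling, 8 rose under spike-in scaling, and 0 were called after normexp. The bile acid carrier slc10a2 had -5.85 and -6.02 in progenitors against -6.71 and -6.81 in glia and rose by 0.83 ± 0.08 (limma, adjusted p = 0.00244). The organic anion carrier slc22a7b.1 had -6.26 and -6.26 in progenitors against -7.21 and -6.73 in glia and rose by 0.71 ± 0.18 (limma, adjusted p = 0.0287), lost without either progenitor replicate (0.71 and 0.71). Its call was also lost under median scaling (0.49), without the filter on dim probes and in the deposited table (0.74). Both genes had low signals, and negative differences after normexp, -0.41 and -0.44. The peptide carrier slc15a1b and the organic solute carrier subunit slc51a rose by 0.38 and 0.16.

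The organic cation carrier slc22a4 had -4.63 and -4.52 in progenitors and -3.64 and -3.62 in glia, a fall of 0.94 ± 0.06 (limma, adjusted p = 0.000806). The organic anion carrier-like gene slc22a6l had -2.80 and -2.92 in progenitors against -2.36 and -2.31 in glia and fell by 0.53 ± 0.06 (limma, adjusted p = 0.0037). The groups overlapped for neither gene, both signs were opposite under spike-in scaling (0.18 and 0.60), and neither call held after normexp (-0.98 and -0.59). Without progenitor replicate 1, and likewise without progenitor replicate 2, 1 gene of this class was higher.

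Among carriers of protons and anions, slc26a5 (prestin) had 0.80 and 0.74 in progenitors against 1.21 and 1.23 in glia and fell by 0.45 ± 0.05 (limma, adjusted p = 0.00285). The sodium-proton exchanger slc9a8 fell by 0.25 ± 0.05 (limma, adjusted p = 0.0126), a call lost after normexp (-0.24) and without glia replicate 1 (-0.26) or glia replicate 2 (-0.25). Both were higher under spike-in scaling (0.68 and 0.87). The sodium-potassium-chloride cotransporter slc12a2 (-0.13) and slc26a11 (-0.03) were not called.

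The sodium pump, which sets the gradient that many of these carriers use, had 9 of 11 tested subunit genes lower and 0 higher. That is 81.8% lower and 0% higher, against 40.4% and 27.5% of all genes tested. The median was -0.49, against -0.11 over all genes, and signs were positive under spike-in scaling. The largest falls were those of the alpha subunit gene atp1a3b, with 3.55 and 3.54 in progenitors against 4.56 and 4.39 in glia (-0.93 ± 0.07, limma adjusted p = 0.00149), and of the beta subunit gene atp1b2b, with 4.69 and 4.79 in progenitors against 5.57 and 5.59 in glia (-0.84 ± 0.05, limma adjusted p = 0.000961). Rod, cone and inner neuron markers moved the same way, and their part was not tested.

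Of the remaining members, slc66a3, of the PQ-loop carrier family, was called higher by 0.22 ± 0.06 (limma, adjusted p = 0.036). Its call was lost without glia replicate 1 (0.16), progenitor replicate 1 (0.20) or progenitor replicate 2 (0.25) and after normexp (0.21), and its difference was 0.00029 under median scaling. A pair of genes carry an slc name without being carriers. The scaffold gene nherf1a, printed as slc9a3r2, had 2.14 and 2.15 in progenitors against 2.80 and 2.80 in glia and fell by 0.65 ± 0.04 (limma, adjusted p = 0.000892). The gene slc7a6os fell by 0.28 ± 0.04 (limma, adjusted p = 0.00805), not called after normexp (-0.26). Both of these were higher under spike-in scaling (0.47 and 0.84), and without them the counts were 27 higher and 47 lower of 110.

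**Figure D4:**
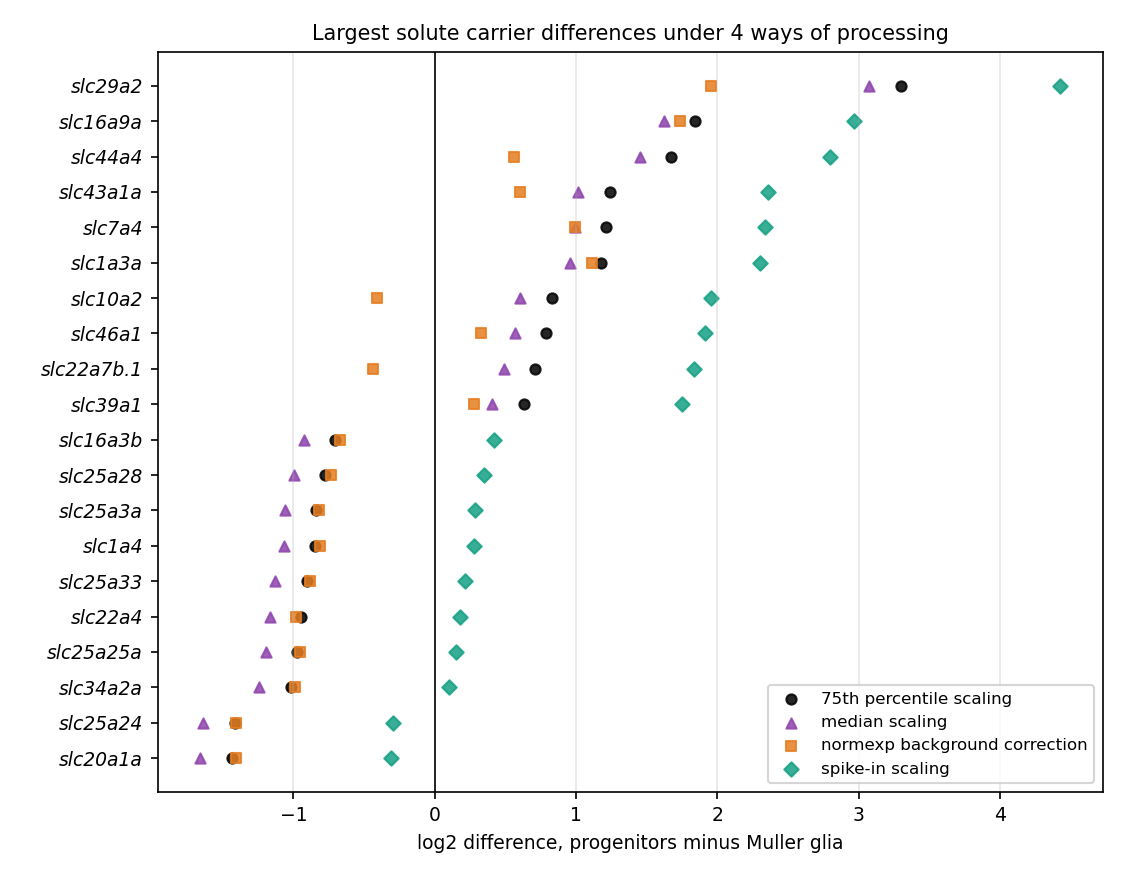
Log2 difference, progenitors minus Muller glia, of the 10 largest rises and the 10 largest falls called and well above background on all arrays, under 75th percentile scaling (black), median scaling (purple), normexp background correction (orange) and spike-in scaling (green). The black and orange points nearly coincide for the falls, while orange lies far left of black for slc29a2 (1.95 against 3.30), slc44a4 (0.56 against 1.67) and slc10a2 (-0.41 against 0.83); green lies right of 0 for all genes but slc25a24 and slc20a1a.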

How the data were processed

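Per the labels' protocols, 0.7 µg of RNA per sample was labelled with Alexa 555 and hybridised to 1-colour Agilent arrays of design 015064. The authors deposited linear spot intensity from Feature Extraction, whose version is 9.5.3.1 in the file headers and 9.1 in the submitters' processing notes. Per the file headers, the processed intensity is background-subtracted, with low values replaced by surrogates and nothing adjusted between arrays. Deposited intensities were converted here to log2 minus each array's 75th percentile, control spots and outlier flags were left out, and the 2 spots of a probe were averaged. A deposited value table, also intensity, served as an alternative. Array number limits the precision.

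Probes well above background on both arrays of at least 1 group were tested (16596 of 21495) with limma 3.58.1 in R 4.3.3 (lmFit, eBayes, total degrees of freedom 3.93), with Benjamini-Hochberg adjustment over all probes. The code was also run on simulated data with far fewer changed probes than were called here, so that run does not vouch for these calls. The brightest probe stood for a gene. Names came from RefSeq's GRCz12tu table by accession (7323 probes), current symbol (598) or older name (2352), or from the file (1639); 9583 were unnamed. Files were read with the data.table package in version 1.17.8. Coordinates are danRer2, from the files.

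Members and lists were chosen with earlier results of these data known. Named genes were all tested glutamate, sugar, amino acid and monocarboxylate carriers, up to 2 per direction of each other class (called and above background on all arrays), the 10 largest differences per direction, and any bound of 2-fold or more; other genes are named to account for the members. Alternatives were median, quantile and spike-in scaling, normexp (offset 50), 2 filters, probe averaging, an intensity trend, the deposited table, a replicate block, leaving out each array, and adding 46 probes that reach an slc symbol only by an older name. No probe sequence was used here, and 1 mitochondrial gene, kept in the counts, is not reported by itself here.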

Additional observations from a re-analysis of the deposited data

How the results depend on the processing

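With 2 arrays per group of unstated origin, the p-values carry 3.93 degrees of freedom, and dim probes rest on the background correction. Scaling decides the sign of most falls: the spike-in probes differed by -1.66 to -0.34 between groups before scaling (median -0.91, 10 probes), and the share of called carriers that were higher was 35.5% under 75th percentile, 16.5% under median, 29.6% under quantile, 97.2% under spike-in scaling and 17.9% after normexp (all genes 40.5%, 23.2%, 41.3%, 97.7% and 41.6%). The 59 named genes counted here include slc6a5 and slc17a6b, which lie outside the naming rule and were picked out after their values were seen. Of the 59, 6 kept direction and call under every alternative, 23 under all but spike-in scaling, and 35 under all but spike-in scaling and normexp.

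The counts of carriers higher, lower, at least 2-fold higher and at least 2-fold lower, and their median, were 27, 49, 6, 4 and -0.13. Under median scaling they were 14, 71, 4, 9 and -0.35, under spike-in scaling 105, 3, 55, 1 (slc6a5, below background in progenitors) and 1.00, and after normexp 5, 23, 2, 2 and -0.28; why normexp loses calls was not tested. The deposited table gave 2 carriers at least 2-fold lower. Leaving out each array in turn, with the lone array assumed to vary like the other group, gave 17 to 22 higher, 37 to 41 lower, 6 to 6 and 3 to 5 at least 2-fold higher and lower, and medians of -0.15 to -0.13. Without a filter 19 were higher and 40 lower. Among the named genes, the calls of slc5a2, slc31a1, slc5a12, slc17a9b, slc18a3b, slc22a7b.1, slc66a3 and slc49a4 were lost without it. The deposited table lost those of slc31a1, slc17a9b, slc18a3b, slc17a6b, slc6a5, slc22a7b.1, slc66a3 and slc49a4. With older-name probes, an alternative chosen after seeing the data, 32 were higher and 53 lower.

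Signs turned for slc7a2 (-0.12), slc5a11 (-0.17), slc31a1 (-0.063) and slc17a9b (-0.087) under median scaling; for slc7a2 (-0.071), slc43a2a (0.10), slc43a2b (0.029) and slc17a9b (-0.013) under quantile normalization; and for slc7a2 (-0.20), slc5a12 (-0.54), slc17a9b (-0.28), slc10a2 (-0.41) and slc22a7b.1 (-0.44) after normexp. Leaving out 1 array gave slc43a2a -0.063 to 0.013, slc43a2b -0.13 to 0.076 and slc2a8 -0.18 to 0.0094. Spike-in scaling added 1.12 to each difference by construction and turned slc43a2a (1.099), slc43a2b (1.098), slc38a5b (1.08), slc7a8 (1.07), slc38a4 (0.89), slc3a2b (0.88), slc7a3a (0.53), slc1a4 (0.28), slc9a8 (0.87), slc26a5 (0.68), slc2a8 (1.04), slc2a5 (0.86), slc50a1 (0.81), slc5a2 (0.76), slc2a3a (0.65), slc1a1 (0.77), slc40a1 (0.68), slc39a13 (0.51), slc25a28 (0.35), slc25a3a (0.28), slc25a33 (0.22), slc25a25a (0.15), slc16a1b (0.90), slc16a3b (0.42), slc18a3b (0.77), slc6a1b (0.62), slc17a6b (0.47), slc7a6os (0.84), nherf1a (0.47), slc35b2 (0.82), slc35e1 (0.73), slc22a6l (0.60), slc22a4 (0.18), slc34a2a (0.10) and slc49a4 (0.87).

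With the replicate number as a block 23 carriers were higher and 47 lower, 6 and 4 of them at least 2-fold, with a median of -0.13; the labels share only a number, and deviations of same-numbered arrays correlated at 0.06.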
